A study of Mus musculus with 75 samples.

Results

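Long open regions of the mouse hypothalamus were described with ATAC-seq, which reads out where a transposase can reach the DNA, and with ChIP-seq for H3K27ac, an acetylation of histone H3 that marks active promoters and enhancers. A region counted as long when it spanned 1500 bp or more on chromosomes 1 to 19 and shared at least 1 bp with a row of the H3K27ac table. By this rule 7877 of the 48634 ATAC regions were members. The rule used length and position only, and not the signal values themselves. Both tables list peaks, which are drawn from sequencing signal, so length and overlap need not be independent of the levels compared below.

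The nuclei came from LepRcre/+; SUN1-sfGFP/+ mice of at least 2 months. Cre from the leptin receptor gene switches on a green fluorescent nuclear tag. Tagged nuclei, taken as those of cells carrying the long receptor form LepRb, were sorted as GFP-positive, and untagged nuclei of the same tissue as GFP-negative. Cells in which Cre was active at an earlier time would also keep the tag. All groups carried both alleles. The 4 treatments were free feeding for 36 h (Fed), a 36 h fast with saline at 12, 24 and 34 h (Fast), the fast with leptin at 5 mg/kg once at 34 h (Lep2) and the fast with leptin at 5 mg/kg at 12, 24 and 34 h (Lep24). The labels also give saline for Fed, while the protocol names no injection for Fed and none before 34 h for Lep2; the library titles carry the codes SSS for Fed and Fast, SSL for Lep2 and LLL for Lep24. With 2 sorts this gave 8 groups of 2 libraries, so 16 ATAC and 16 H3K27ac libraries. Hypothalami were pooled, and the labels do not say whether the replicates were separate pools, so the p-values reflect only how these libraries vary, which may be technical. The regions carry no gene names here and the sort was not checked against marker genes.

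Open regions mark DNA from which nucleosomes have been moved or loosened, and a region drawn as long in a peak list is either 1 wide opening or several neighbouring ones merged. Active promoters of broadly used genes are typically open and flanked by nucleosomes with H3K27ac, and clusters of enhancers also give long stretches of acetylation. Leptin, a hormone of fat tissue, falls in fasting and acts on LepRb neurons of the hypothalamus to lower food intake. All positions are in build mm9, counted from 1, and are given without gene, exon or intron.

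The long regions were 16.2% of all ATAC regions and held 35.8% of their base pairs (17.9 of 49.9 Mb). Their median length was 1972 bp, with quartiles of 1700 and 2462 bp; 1012 reached 3000 bp, 163 reached 5000 bp and 15 reached 10000 bp. They were unevenly placed: 21.4% of the ATAC regions on chromosome 11 and 21.1% of those on chromosome 19 were members, against 11.6% on chromosome 13.

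Signal is the authors' normalized count per region. The median member had a mean ATAC signal of 50.9 over the 16 libraries (quartiles 34.2 and 78.6), or 23.2 per kb of region length (quartiles 16.5 and 35 per kb). Regions with H3K27ac of 1000 bp up to under 1500 bp, 8392 in number, had a median of 21.0 per kb, and the 23475 shorter than 1000 bp had 19.2 per kb. The other 989 long autosomal regions, which touched no H3K27ac row, had a median of 1.34 per kb, so that length alone did not go with a high level. Among members the level per kb did not increase with length, with medians of 24.1, 23.2, 20.7 and 19.7 per kb in regions of 1500 to under 2000, 2000 to under 3000, 3000 to under 5000 and 5000 bp or more. At the length threshold, 209 members at most 20 bp above it had a median signal of 31.8 and 21.1 per kb, and the 231 regions with H3K27ac at most 20 bp under it had 34.9 and 23.5 per kb.

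**Figure D1:**
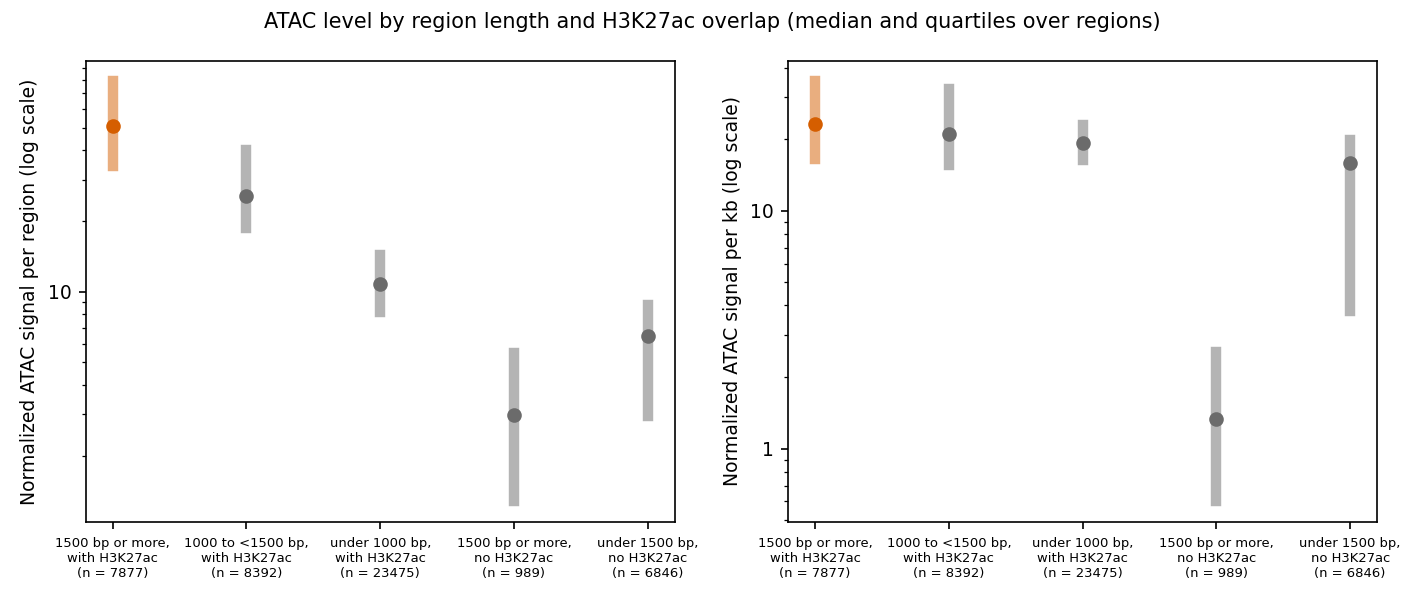
Mean ATAC signal over 16 libraries (log axes), per region on the left and per kb on the right, for 5 classes of autosomal regions; points are medians and bars run between the quartiles over regions. Long regions with H3K27ac had a median of 23.2 per kb, and long regions without it 1.34 per kb.

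A few members were far from the rest. Only 38 were below 5 per kb and 6 were above 200 per kb. The densest, chr17:39979963-39985772 (5810 bp), had 3173 per kb, chr2:98502412-98504231 (1820 bp) had 1757 per kb and chr9:3000010-3038202 (38193 bp, also the second longest) had 261 per kb. These 3 held 5.83% of all signal in members, and their libraries varied widely. The chromosome 17 region had 8012.5 to 33320.1 in the 8 GFP-positive libraries (median 19201.8) and 7086.9 to 26280.0 in the 8 GFP-negative libraries (median 17903.6), so the groups overlapped. ATAC was called higher in GFP-positive nuclei at the other two, each higher in 6 of 8 library pairs, by log2 0.72 on chromosome 2 (adjusted p = 0.0176 by limma) and 0.78 on chromosome 9 (adjusted p = 0.0458). H3K27ac at the row of the chromosome 2 region had 11045.7 to 526557.6 in GFP-positive libraries and 10503.6 to 1315248.7 in GFP-negative libraries. The high values there all came from a set of 6 libraries described below. The longest member, chr8:126060526-126148324 (87799 bp), was nearly empty at 0.346 per kb, and only 708 bp of it lay under H3K27ac. Next in length after these, chr16:20703959-20718473 (14515 bp), had 19.4 per kb and lay wholly inside one H3K27ac row.

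Members took 43.4 to 47.0% of the autosomal ATAC signal of each library, and 42.7 to 44.6% without the 3 densest. Their median signal was 50.1 to 54.3 in the GFP-positive libraries (median 52.4) and 48.7 to 52.8 in the GFP-negative libraries (median 49.9), so the sorts overlapped. Replicates of a group correlated across members with Pearson's r of 0.876 to 0.943, as a description over 7877 regions. The smallest signal step, a rough guide to depth because the files hold no read totals, was 0.67 to 2.26 in GFP-positive ATAC libraries and 0.49 to 1.18 in GFP-negative ATAC libraries.

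The long regions lay in broad H3K27ac rows. They touched 6680 of 126368 H3K27ac rows, and 7717 (98.0%) were covered from end to end. Most, 7626, touched 1 row, and 251 touched 2 or more. In turn 860 rows held 2 or more members, up to 13 in 1 row, so members that share a row share its value. The median row was 8857 bp long against 1924 bp for all rows, and 43.9% of these rows reached 10000 bp against 7.36% of all rows. Open regions of 1000 to under 1500 bp and of under 1000 bp with H3K27ac also lay in broad rows. Of them, 98.1% and 97.2% were covered from end to end. Counted per region, the row of largest overlap had a median length of 11261 bp at members, against 6921 and 6153 bp at these shorter classes, and it reached 10000 bp at 55% of members, against 37.6% and 34.8%. Per kb the rows at members had a median signal of 32.4 against 13.9 for all rows. Counted per region, the row of largest overlap had a median of 32.2 per kb at members. It was 28.2 per kb at regions of 1000 to under 1500 bp and 19.8 per kb at those under 1000 bp. Rows at members were 5.29% of rows and 20.3% of the base pairs in rows, and they carried 33.6% of the signal. This share includes the row of the dense chromosome 2 region, with a mean of 266362 against a median of 321 for rows at members. Across members, ATAC per kb and H3K27ac per kb of the row went together with a Spearman correlation of 0.467 (n = 7877), given as a description because both come from sorted pools of the same kind and rows are shared.

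The H3K27ac libraries fell into 2 sets at these rows. A set of 6 libraries, the first replicates of each treatment but Fast, in both sorts, had a signal above 5000 summed over the rows on the mitochondrial chromosome, and their median signal at the rows was 211 to 272. The other 10 libraries, all 4 Fast libraries among them, had medians of 347 to 380, with no overlap. Over all rows the medians of log2(signal + 1) were 5.00 to 5.10 in the set of 6 and 4.945 to 4.99 in the other 10. No Fast library is in the set, so every H3K27ac comparison with Fast is partly a comparison with this set.

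**Figure D2:**
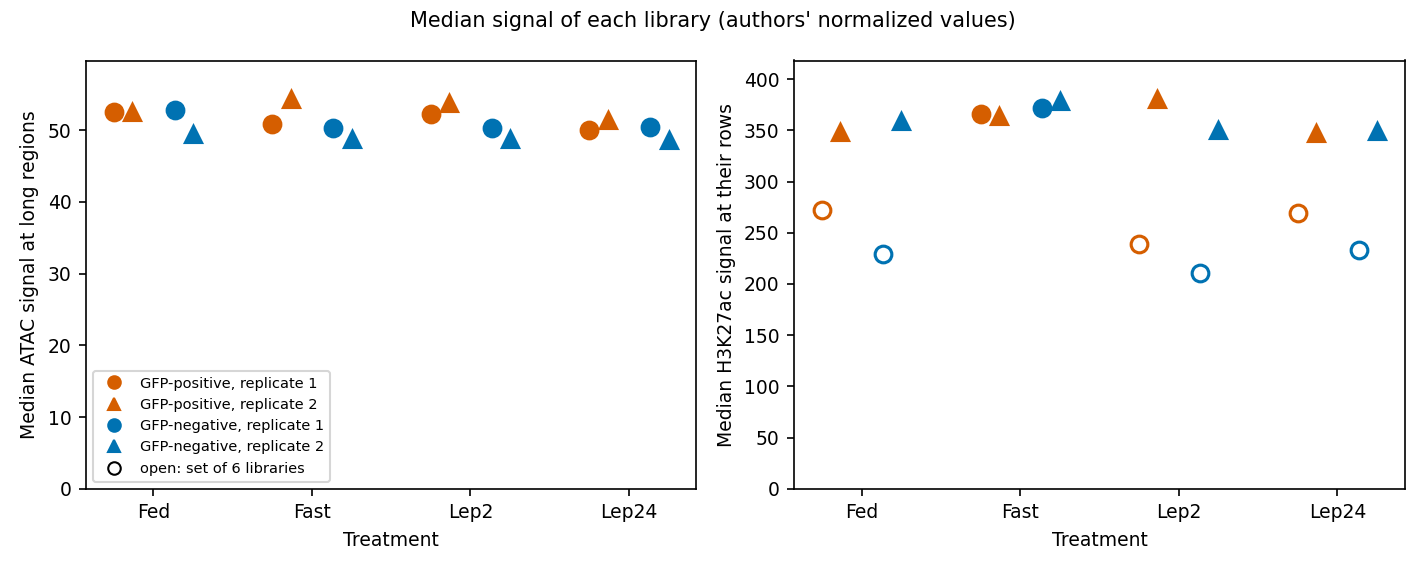
Median normalized signal of each library at the long regions (ATAC, left) and at the H3K27ac rows over them (right), by treatment, with GFP-positive left of GFP-negative; open symbols mark the set of 6 H3K27ac libraries. ATAC medians ran from 48.7 to 54.3, while the set of 6 had H3K27ac medians of 211 to 272 and the other 10 libraries 347 to 380.

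The first comparison was GFP-positive against GFP-negative nuclei over all treatments. ATAC signal differed at 511 of the 7862 members that passed a filter on low signal, 298 higher and 213 lower in GFP-positive nuclei (limma with Benjamini-Hochberg adjustment over all regions tested, adjusted p under 0.05). That is 6.5% of members, against 9.79% of all 43770 regions tested, and the same background is 4.66% for higher and 5.13% for lower. In sorted pools, a region open in more of the nuclei and a region more open in each nucleus cannot be told apart. The median size of the called changes was 0.48 on the log2(signal + 1) scale where higher and 0.42 where lower, against 0.78 and 0.93 over all called regions. Only 4 of the 298 and 6 of the 213 reached 2-fold, against 402 of 2041 and 931 of 2245 among all regions called. The median 95% interval reached 0.25 to either side of the estimate at members and 0.41 over all regions. Of the called members, 161 of 298 and 131 of 213 had the same sign in each of the 8 pairs made of the GFP-positive and GFP-negative library of a treatment and replicate number. In the authors' deposited table, 24 members had a sort difference with FDR under 0.05 (8 higher, 16 lower), which is 0.306% of members with an FDR against 0.408% of all regions with one, and all 24 were among those called here, with the same sign.

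Leaving out 1 ATAC library lowered the count of 511 by more than 1.5 times in 8 of 16 cases. Over the 16 cases the share of members called was 2.95% to 8.42%. The shares over all regions in these fits are not printed here, so a fall at members is not told apart from one over the whole table. It was 291 without Fed GFP-positive replicate 2, 318 without Lep2 GFP-positive replicate 2, 247 without Fed GFP-negative replicate 2, 232 without Fast GFP-negative replicate 2, 331 and 269 without replicate 1 or 2 of Lep2 GFP-negative, and 275 and 298 without replicate 1 or 2 of Lep24 GFP-negative. Fast GFP-positive replicate 2 and Lep2 GFP-positive replicate 2 stood apart on principal components, and without both the count was 346 (169 higher, 177 lower), which is 4.4% of members against 9.49% of all regions, with backgrounds of 4.26% higher and 5.23% lower.

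The direction of the ATAC difference went with how dense a long region was. In the quintile with the lowest signal per kb (median 13.5), 107 members were called higher and 32 lower in GFP-positive nuclei. In the next quintile (17.7 per kb) the counts were 104 and 29, and in the middle one (23.2 per kb) 61 and 31. They were 22 and 26 at a median of 31.7 per kb, and 4 and 95 in the densest quintile (53.7 per kb). The median log2 difference of all tested members in these quintiles was 0.11, 0.11, 0.06, -0.02 and -0.12 in that order. In the densest quintile it was below 0 in all 8 pairs of libraries (-0.21 to -0.04), and in the lowest it was above 0 in 6 of 8 (-0.14 to 0.30). The replicate 2 pairs had 0.18 to 0.30 there, and the replicate 1 pairs -0.14, 0.03, 0.15 and -0.10 for Fed, Fast, Lep2 and Lep24. After quantile normalization the medians of the lowest and the densest quintile were 0.06 and -0.04, and without the 2 libraries that stood apart they were 0.05 and -0.14. Shorter regions with H3K27ac, split at the same densities, had medians of -0.06, 0.03, 0.05, -0.01 and -0.12, so the densest were lower in both classes. Their counts of higher and lower calls were 337 and 304, 591 and 527, 447 and 375, 111 and 136, and 15 and 104. Called in either direction were 8.84%, 8.46%, 5.85%, 3.05% and 6.29% of members in these quintiles, against 11%, 10.2%, 10.1%, 6.65% and 5.54% of the shorter regions. The smallest signal step, given above, had a median of 1.23 in GFP-positive libraries and 0.835 in GFP-negative libraries, and its part in this gradient was not tested.

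**Figure D3:**
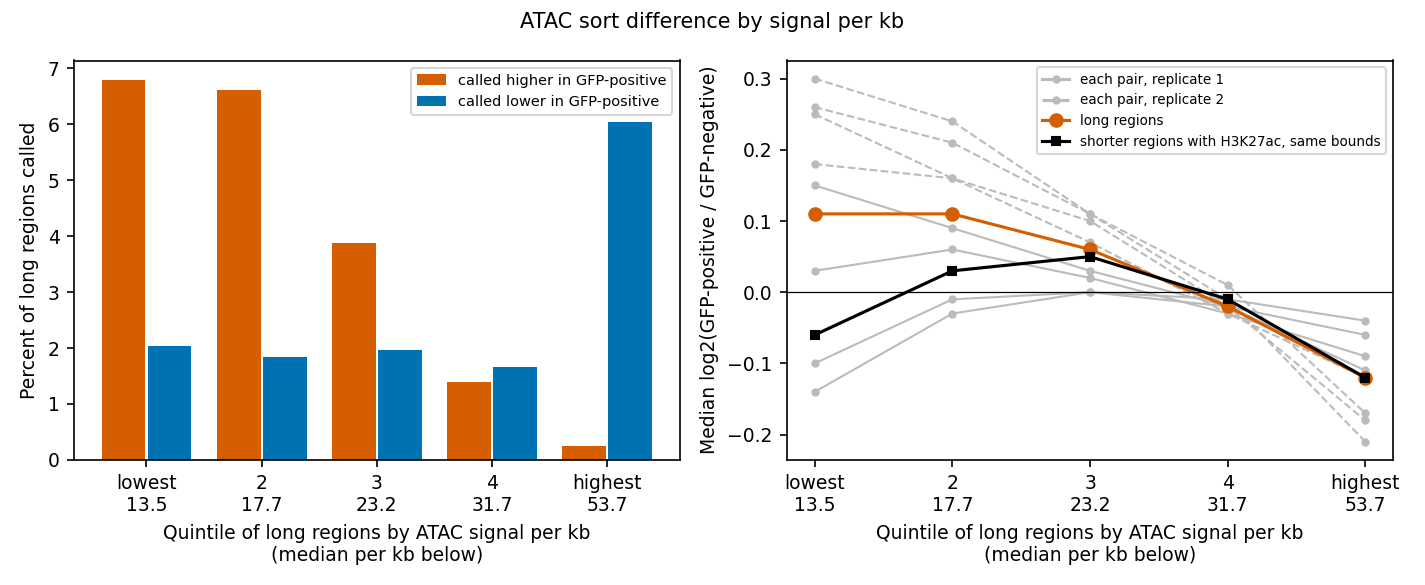
Left, percent of tested long regions called higher or lower in GFP-positive nuclei, by quintile of ATAC signal per kb; right, the median log2(GFP-positive / GFP-negative) of long regions, of shorter regions with H3K27ac at the same bounds, and of each of the 8 library pairs. The balance turned from 107 higher and 32 lower in the lowest quintile to 4 higher and 95 lower in the densest.

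By length, 140 members were higher and 125 lower of 4106 tested under 2000 bp (3.41% and 3.04%), 100 and 62 of 2746 from 2000 to under 3000 bp (3.64% and 2.26%), 45 and 25 of 848 from 3000 to under 5000 bp (5.31% and 2.95%) and 13 and 1 of 162 from 5000 bp (8.02% and 0.617%), beside backgrounds of 4.66% higher and 5.13% lower over all regions. Members of 5000 bp or more also had the lowest median per kb of these length classes (19.7). Over the quintiles of signal per kb, the median length was 1903 to 2037.5 bp. Length and density were not separated in these counts.

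The regions with the smallest p in each direction, among those with the same sign in all 8 pairs, show the size of the difference in each sort. At chr10:82644028-82645967 the ATAC signal was 36.0 to 69.7 in GFP-positive libraries (median 48.5) and 19.3 to 32.0 in GFP-negative libraries (median 21.4). Every GFP-positive library lay above every GFP-negative one, a log2 difference of 1.03 (SE 0.13, adjusted p = 6.08e-05 by limma). H3K27ac at its row differed less, with 151.9 to 197.9 in GFP-positive libraries and 118.8 to 176.2 in GFP-negative libraries, which overlapped (log2 0.22, adjusted p = 0.227, or 0.0482 with the set of 6 H3K27ac libraries as a term).

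The widest ratio among the higher regions was at chr4:134142892-134144769. It had 29 to 56.5 in GFP-positive libraries (median 35.2) and 9.9 to 21.7 in GFP-negative libraries (median 14.7). The groups did not overlap, and the log2 difference was 1.25 (SE 0.16, adjusted p = 6.15e-05 by limma), a 2.39-fold difference on the log2(signal + 1) scale. Its H3K27ac row had a log2 difference of 0.30, which missed the threshold (adjusted p = 0.0998) and was called with the set of 6 as a term (adjusted p = 0.00645).

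At chr17:73599678-73601790 both assays were higher. ATAC signal was 26.8 to 68.1 in GFP-positive libraries (median 35.8) and 14.3 to 26.8 in GFP-negative libraries (median 17.6), so the groups met at a single value. H3K27ac at its row was 96.6 to 216.4 in GFP-positive libraries (median 131.8) and 61.4 to 92.9 in GFP-negative libraries (median 73.0). There the groups were fully apart, with a log2 difference of 0.89 (SE 0.17, adjusted p = 0.00729 by limma). The other three of the 6 highest ranked, chr11:117829329-117832173, chr7:106733622-106736529 and chr2:31272960-31274826, had ATAC log2 differences of 0.91, 0.81 and 0.88, and none of their H3K27ac rows was called over the 16 libraries. With the set of 6 as a term the rows on chromosomes 11 and 2 were called higher (log2 0.22 and 0.20, adjusted p = 0.00202 and 0.0493 by limma). At the chromosome 7 region the row was level between the sorts, with a median of 2243 in GFP-positive libraries and 2303 in GFP-negative libraries and an adjusted p of 0.996, or 0.983 with the set of 6 as a term.

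Among lower regions, chr1:74341637-74343324 was lower in both assays. Its ATAC signal was 18.1 to 34.5 in GFP-positive libraries (median 27.5) and 41.2 to 73.4 in GFP-negative libraries (median 54.1). Its H3K27ac row had 261.7 to 348.0 in GFP-positive libraries (median 298.2) and 558.8 to 895.1 in GFP-negative libraries (median 759.6). Neither assay overlapped between the sorts. The log2 differences were -1.0 (adjusted p = 0.00015) in ATAC and -1.27 (adjusted p = 0.000802) in H3K27ac by limma. The latter was the smallest adjusted p of all H3K27ac rows tested, a value that several rows can share.

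At chr14:26559547-26561083 ATAC signal was 5.4 to 29.2 in GFP-positive libraries (median 14.8) and 24.7 to 39.8 in GFP-negative libraries (median 38). The ranges overlapped, and the log2 difference was -1.31 (SE 0.19, adjusted p = 0.000229 by limma), the largest of the called members. Its H3K27ac row had 76.2 to 273.3 in GFP-positive libraries (median 91.2) and 277.3 to 369.9 in GFP-negative libraries (median 310.2), fully apart. At chr14:41768750-41770291 both assays were lower too, with ATAC at 25.7 to 35.6 in GFP-positive libraries and 44.8 to 56.0 in GFP-negative libraries (log2 -0.74) and a log2 of -0.65 at the row (adjusted p = 0.0102 by limma).

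In contrast, chr2:116800429-116802029 had the smallest adjusted ATAC p of the whole table, a value that several regions can share. No difference was called at its row. Its ATAC signal was 22.3 to 41.4 in GFP-positive libraries (median 31.2) and 49.7 to 88.5 in GFP-negative libraries (median 68.2), without overlap (log2 -1.15, adjusted p = 1.37e-05 by limma). H3K27ac was 259.5 to 412.8 in GFP-positive libraries and 250.4 to 462.8 in GFP-negative libraries, with a log2 difference of -0.03 (SE 0.17, adjusted p = 0.936, or 0.781 with the set of 6 as a term). The last pair, chr2:165967973-165969670 and chr11:97279808-97281466, had ATAC log2 differences of -0.97 and -1.11, and their rows, of 60724 and 106811 bp, had -0.62 and -0.39. The rows were not called over the 16 libraries (adjusted p = 0.0585 and 0.148 by limma) and were called lower with the set of 6 as a term (adjusted p = 3.17e-07 and 7.05e-07).

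**Figure D4:**
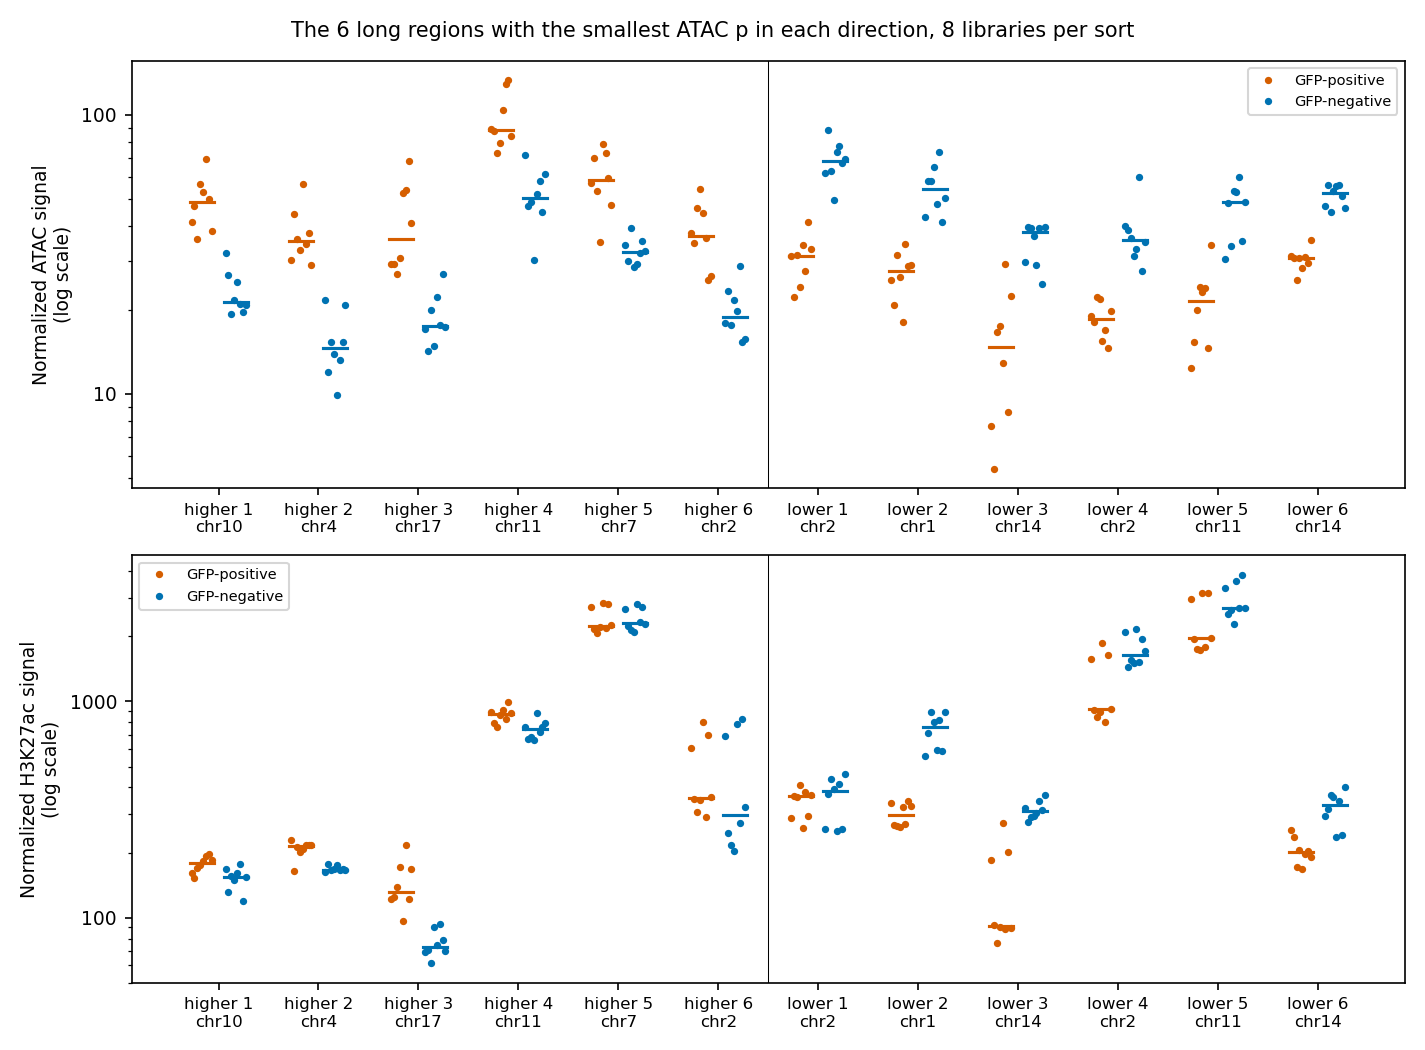
ATAC signal (top) and H3K27ac signal of the overlapping row (bottom, both on log axes) at the 6 higher and the 6 lower long regions with the smallest ATAC p, in the order of their p; each point is a library, GFP-positive left of GFP-negative, and lines are medians. Among the 6 higher regions the row of the one on chromosome 17 was called higher, and among the 6 lower ones the rows of those on chromosomes 1 and 14 (1 and 2 regions) were called lower, in the fit of the 16 libraries.

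H3K27ac differed between the sorts at 393 of 6617 tested rows over members (190 higher, 203 lower), or 5.94% against 9.22% of all 113731 rows tested, with backgrounds of 3.26% higher and 5.96% lower. After quantile normalization the split was 332 higher and 220 lower (5.02% and 3.32%), against 3.53% and 5.72% of all rows. The set of 6 libraries bore on this count. With the set as a term, added after the data were seen, 2609 rows were called (1678 higher, 931 lower), 39.4% of rows at members against 26.6% of all rows. Without those 6 libraries each Fed, Lep2 and Lep24 group keeps 1 library, and only the Fast libraries give a spread. Counts of calls from that fit are therefore not read as results. Leaving out 1 library at a time lowered 393 to 194 or 201 without replicate 1 or 2 of Fast GFP-positive, and to 192 or 222 without replicate 1 or 2 of Fast GFP-negative. It was 200, 261 and 195 without replicate 2 of the GFP-positive libraries of Fed, Lep2 and Lep24. Over all cases of 1 library left out, 2.9% to 8.58% of rows at members were called. The shares over all rows in these fits are not printed here. In the authors' deposited values, from their own table, 1245 rows at members had FDR under 0.05 (711 higher, 534 lower), 19.1% of those with an FDR against 15.4% of all rows with one, and 377 of them were called here, all with the same sign.

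Counted per member, with the row of largest overlap standing for it, 219 members had a row called higher and 259 a row called lower. Of these, 209 and 227 had the same sign in all 8 pairs. Among these, the higher row with the smallest p was at chr4:151998545-152000670. Its H3K27ac was 257.2 to 389.9 in GFP-positive libraries (median 356.4) and 156.8 to 209.0 in GFP-negative libraries (median 186.7), with no overlap (log2 0.90, SE 0.11, adjusted p = 0.00111 by limma). At chr2:172075130-172076704 the row had 218.4 to 332.2 in GFP-positive libraries (median 301.2) and 123.4 to 178.9 in GFP-negative libraries (median 133.6), again fully apart (log2 1.01), and the ATAC signal was higher too (log2 0.98, adjusted p = 0.0137). The rows at chr4:152070603-152072486 and chr1:137947051-137948670 were higher by log2 0.77 and 0.72, and ATAC was called at neither (adjusted p = 0.055 and 0.235 by limma).

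Of the lower rows, that at chr5:45864049-45865767 had 53.1 to 106.5 in GFP-positive libraries (median 61.5) and 140.7 to 215.2 in GFP-negative libraries (median 187.8), without overlap. The log2 difference was -1.37 (SE 0.16, adjusted p = 0.00104 by limma), and ATAC was lower as well at log2 -1.02 (adjusted p = 0.00482). The row at chr3:88009505-88011359 had 392.3 to 585.7 in GFP-positive libraries and 794.8 to 1003.0 in GFP-negative libraries (log2 -0.94), and that at chr12:8331918-8334223 had 335.9 to 660.8 in GFP-positive libraries and 942.3 to 1068.3 in GFP-negative libraries (log2 -1.15). Neither row overlapped between the sorts, while ATAC at both regions was not called, with log2 differences of -0.36 and -0.20. The remaining region of the list is chr1:74341637-74343324, described above.

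Long regions called in both assays mostly had the same sign in both. Of the 298 members with ATAC called higher, 47 (15.8%) had their row called higher and 0 lower, and these 47 were 21.5% of the 219 members with a higher row. Of the 213 with ATAC called lower, 32 (15.0%) had a lower row and 1 a higher row, the 32 being 12.4% of the 259 members with a lower row. Where ATAC was not called, 2.31% of members had a higher row and 3.09% a lower one. These shares describe long regions only and are not set against shorter regions. The median log2 difference of the row was 0.17 where ATAC was called higher, -0.12 where it was called lower and 0.05 at the 7347 members where it was not called. The sign of the row followed that of ATAC at 216 of 298 and at 144 of 213. Across members the Spearman correlation of the log2 differences was 0.196 (n = 7858), a description, since members can share a row. With the set of 6 as a term, rows were called higher and lower at 149 and 26 of the 298, and lower and higher at 88 and 10 of the 213.

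**Figure D5:**
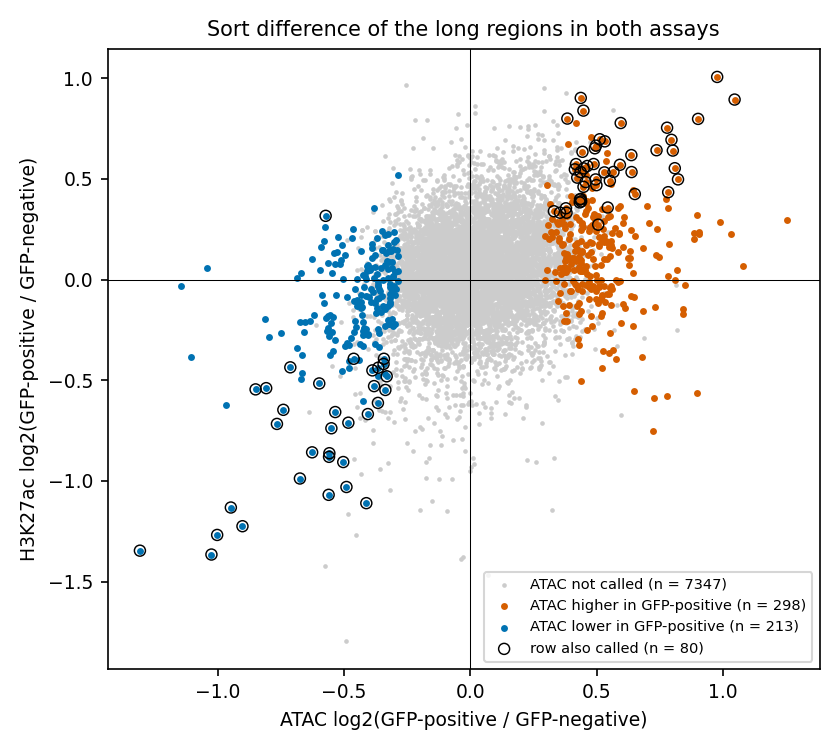
Each point is a long region tested in both assays, with its ATAC log2(GFP-positive / GFP-negative) on the x axis and that of its H3K27ac row on the y axis, both on the log2(signal + 1) scale; circles mark regions called in both. Of the circled regions, 47 were higher in both assays, 32 lower in both and 1 had opposite signs.

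The single member with opposite calls was chr1:134096370-134098346. Its ATAC signal was 25.5 to 56.6 in GFP-positive libraries (median 32.5) and 36.1 to 55.9 in GFP-negative libraries (median 53.5), so the ranges overlapped, and it was lower in 7 of 8 pairs (log2 -0.57, SE 0.14, adjusted p = 0.013 by limma). Its row, 26653 bp long, had 1164.0 to 1433.7 in GFP-positive libraries and 862.1 to 1153.1 in GFP-negative libraries, higher in all 8 pairs (log2 0.32, SE 0.09, adjusted p = 0.0351 by limma).

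The treatment comparisons asked whether fasting or leptin changed the long regions within each sort. By limma at an adjusted p under 0.05, 0 members were called in all 18 tests (fasting, single leptin and repeated leptin in each sort, and the difference of each change between the sorts, in both assays), and the background was 0% in each. The 3 comparisons within a sort share the Fast libraries. For ATAC in GFP-positive nuclei, 336 members had an unadjusted p under 0.05 for Fast against Fed (4.27%, against 6.56% of all regions), 387 for Lep2 against Fast (4.92% against 7.85%) and 366 for Lep24 against Fast (4.66% against 6.7%). In GFP-negative nuclei these were 127, 67 and 60 members (1.62%, 0.852% and 0.763%, against 1.97%, 1.5% and 1.49% of all regions). For the difference of the change between sorts they were 203, 198 and 171 (2.58%, 2.52% and 2.18%, against 3.95%, 3.98% and 2.98%). With 2 libraries per group the median unadjusted 95% interval at members reached 0.51 on the log2 scale to either side for ATAC and 0.72 for H3K27ac (Lep24 against Fast, GFP-positive). A call needs a p adjusted over all regions, so changes well beyond these widths could also go uncalled.

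The member with the smallest p in each ATAC comparison was named by rule, and none was called. In GFP-positive nuclei, chr7:52111983-52113744 had 24.6 and 21.9 in Fast against 48.8 and 45.7 in Fed (log2 -0.99, adjusted p = 0.496 by limma). At chr8:35535562-35537138 Lep2 had 29.2 and 43.3 and Fast 11 and 10.7 (log2 1.63, adjusted p = 0.29). At chr11:69181408-69182920 Lep24 had 14.6 and 11.8 and Fast 32.5 and 54.3 (log2 -1.61, adjusted p = 0.144). In each of these the 2 groups of 2 libraries did not overlap, but they were picked for the smallest p, so this adds no support. In GFP-negative nuclei the smallest p were at chr9:44095077-44097448 for Fast against Fed (32.4 and 42.4 in Fast, 69.2 and 56.9 in Fed), at chr6:126446755-126448368 for Lep2 against Fast (19.9 and 5.0 in Lep2, 28.5 and 26.5 in Fast) and at chr2:163544297-163545807 for Lep24 against Fast (13.9 and 10.4 in Lep24, 25.4 and 26.5 in Fast). The adjusted p was 1 for all 3.

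The ATAC counts of 0 in GFP-positive nuclei changed when Fast GFP-positive replicate 1 was left out, which leaves Fast with the library that stood apart, assumed to vary like the other groups. Then 53 members were called for Fast against Fed (0.674%, against 3.16% of all regions), 60 for Lep2 against Fast (0.763% against 3.42%) and 67 for Lep24 against Fast (0.852% against 3.56%), and 10, 9 and 5 for the differences between sorts (0.127%, 0.114% and 0.0636%, against 1.35%, 1.15% and 1.12% of all regions). Without Lep2 GFP-positive replicate 1, 21 were called for Lep2 against Fast (0.267% against 0.95%), and without Fed GFP-positive replicate 1, 1 for Fast against Fed (0.0127% against 0.064%).

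H3K27ac at the rows over members moved as a block in the treatment medians, along with the set of 6 libraries. The median log2 change of Fast against Fed was 0.18 in GFP-positive nuclei and 0.30 in GFP-negative ones, that of Lep2 against Fast -0.22 and -0.36, and that of Lep24 against Fast -0.20 and -0.30. Over all rows tested these medians were between -0.01 and 0.02. With the set as a term they were -0.05 and 0.07, 0.00 and -0.13, and 0.04 and -0.08 in the same order, and without the 6 libraries all lay between -0.06 and 0.04. In GFP-positive nuclei, 8, 24 and 15 rows had an unadjusted p under 0.05 (0.121%, 0.363% and 0.227%, against 1.91%, 3.27% and 2.65% of all rows). In GFP-negative nuclei these were 85, 108 and 58 rows (1.28%, 1.63% and 0.877%, against 5.98%, 4.63% and 6.06%). For the difference between sorts they were 9, 5 and 1 (0.136%, 0.0756% and 0.0151%, against 2.36%, 2.37% and 2.17%).

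The H3K27ac rows with the smallest p were not called either. In GFP-positive nuclei a row of 978 bp at the end of chr9:57005284-57007038 had the smallest p for both Fast against Fed and Lep2 against Fast. It had 19.4 and 6.3 in Lep2, 3.5 and 0.0 in Fast and 7.2 and 9.8 in Fed, values near the filter on low signal. For Lep24 against Fast it was the row at chr13:120276054-120279671, with 283.1 and 226.1 in Lep24 and 147.0 and 140.0 in Fast (log2 0.81, adjusted p = 0.942 by limma). In GFP-negative nuclei the row at chr11:45739898-45741642 had 38.3 and 29.5 in Fast and 11.6 and 17.2 in Fed (log2 1.19, adjusted p = 0.716). That at chr5:112861814-112864206 had 19.6 and 23.1 in Lep2 and 9.8 and 5.0 in Fast (log2 1.47, adjusted p = 0.722). The row at chr11:87261530-87263045 had 55 and 62.2 in Lep24 and 113.6 and 109.0 in Fast (log2 -0.92, adjusted p = 0.714). Without the set of 6 libraries some rows were called in GFP-negative nuclei, for Fast against Fed and for Lep24 against Fast. That fit keeps a single library in each Fed, Lep2 and Lep24 group, so its calls are not read as treatment changes.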

How the data were processed

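ATAC-seq and H3K27ac ChIP-seq libraries of sorted nuclei were analysed (16 each, 8 groups of 2 by title, treatment and sort); the RNA (23), ChIP input (16) and ATAC input (4) samples were not used here. Per the file headers, the authors deposited 1 table per assay with normalized signal for each region and library, and their own log2 fold changes and FDR p-values for GFP-positive against GFP-negative. The method of normalization: not given in the sources used here. Values carry 1 decimal on unequal steps, so whole reads could not be recovered and depth is unknown. Build mm9 and the tools MACS2, DESeq2 1.16.1, HTSeq 0.6.0, Bowtie2 2.2.6, Bowtie 1.2, STAR 2.5.2b and CASAVA 1.8 come from the submitters' processing notes, with no step tied to either table. Columns of the ChIP table were taken as H3K27ac, after its region names.

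Regions with mean signal in the lowest 10% (under 5.44 for ATAC and 5.96 for H3K27ac) were left out, which removed 15 of 7877 members and 63 of 6680 rows over them. Log2(signal + 1) was fitted in limma 3.58.1 (R 4.3.3) with 8 group means and an intensity-dependent prior. P-values are two-sided and Benjamini-Hochberg adjusted over each table, with 10 comparisons per assay. Fold changes on this scale understate changes of low regions. The fits were tested on simulated data, plots used matplotlib 3.10.9 and tables pandas 2.3.3. Regions were named by rule: the 3 longest and the 3 densest; the 6 higher and 6 lower ATAC calls and the 4 higher and 4 lower H3K27ac calls with the smallest p and 1 sign in all 8 pairs; opposite calls; and the smallest p of each treatment comparison. Members and rules were chosen with earlier results of these data known. Alternatives were pseudocounts of 0.1 and 5, no filter, quantile normalization, replicate or pair blocks, library weights, only the groups compared, an adjusted p of 0.01, lengths of 1000 and 2000 bp, overlap of at least 50% of the region, any overlapping row, and each library left out. The set of 6 H3K27ac libraries and the 2 ATAC libraries that stood apart were treated separately after seeing the data.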

Additional observations from a re-analysis of the deposited data

Results flagged for a closer look

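In each sort, 8 libraries were compared at the medians of members and at the named sort regions, and a library was singled out when its gap to the nearest other was too large a share of the range by Dixon's 95% critical value, which chance gives in about 1 in 20 groups. This held in 9 of 86 groups. Fed GFP-negative replicate 1 had a median ATAC signal of 52.8 at members, against 48.7 to 50.5 in the other GFP-negative libraries. At chr1:134096370-134098346, the region with opposite calls, ATAC was 56.6 in Lep24 GFP-positive replicate 2, against 25.5 to 36.9 in the other GFP-positive libraries, and 36.1 in Lep24 GFP-negative replicate 1, against 47.6 to 55.9. At chr1:137947051-137948670 Fast GFP-positive replicate 1 had an ATAC signal of 17.7, against 30.2 to 38. At chr12:8331918-8334223 Lep24 GFP-positive replicate 2 had 55.3, against 24.1 to 37.6. At chr2:165967973-165969670 Lep2 GFP-negative replicate 2 had 60.1, against 27.5 to 39.9. At chr4:151998545-152000670 Fed GFP-negative replicate 2 had 22.2, against 30.8 to 38.3. In H3K27ac, Fed GFP-negative replicate 1 had 178.9 at the row of chr2:172075130-172076704, against 123.4 to 144.7, and Fed GFP-positive replicate 2 had 164.0 at the row of chr4:134142892-134144769, against 201.3 to 229.0.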

How the results depend on the processing

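The ATAC count of 511 members between the sorts was 108 at an adjusted p of 0.01, 1135 with lengths from 1000 bp (7% of those tested) and 246 from 2000 bp (6.55%), and 232 to 662 (2.95% to 8.42%) with 1 library left out. The H3K27ac count of 393 rows was 126, 972 (7.35%) and 197 (6.17%) under the same changes, 192 to 568 with 1 library left out, 2609 with the set of 6 as a term and 3335 without it. The last of these counts is from the fit with those 6 libraries left out, not from the fit that drops the term. Each Fed, Lep2 and Lep24 group then keeps 1 library, and only the Fast libraries give a spread. That count is therefore not read as a result. Per member, 478 had a called row, 489 by any overlapping row and 3314 with the set as a term. The labels do not say whether same-numbered libraries came from a shared pool. Same-numbered libraries of a treatment deviated together with r of 0.038 to 0.141 in ATAC and 0.01 to 0.495 in H3K27ac. Those of any 2 groups did so with a median r of 0.105 and 0.355. As r was not over 0.1 in every pair, they were not taken as paired in the main fit. With the replicate block the counts were 1040 for ATAC (514 higher, 526 lower; 13.2% of members against 14.2% of all regions) and 1202 for H3K27ac (698 and 504; 18.2% against 16.2%), and 1 for ATAC in GFP-positive Lep24 against Fast. With a replicate block by pair they were 1093 (13.9% against 14.8%) and 2574 (38.9% against 25.1%). For H3K27ac the share at members was thus below that of all rows without a block (5.94% against 9.22%) and above it with either block.

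Beside that 1, the treatment counts of 0 changed in the following alternatives and in no other that was run. With 1 ATAC library left out they were 0 to 53 for Fast against Fed, 0 to 60 for Lep2 against Fast and 0 to 67 for Lep24 against Fast, all in GFP-positive nuclei, and 0 to 10, 0 to 9 and 0 to 5 for their differences from GFP-negative nuclei. In GFP-negative nuclei without the set of 6, H3K27ac calls numbered 6 for Fast against Fed and 100 for Lep24 against Fast. In that H3K27ac fit the Fed and Lep24 groups keep 1 library each, and only the Fast libraries give a spread. Its counts are therefore not read as treatment changes. The calls that named the sort regions, 13 in ATAC and 8 in H3K27ac, kept their direction and call in each alternative run, except that the ATAC call at chr1:134096370-134098346 (log2 -0.57) was lost at an adjusted p of 0.01. Other single calls printed with an adjusted p of 0.0102 to 0.0458 would be lost at that threshold too. The cause of these moves was not tested beyond the stricter threshold and the fewer libraries themselves. Depth is unknown, and with 2 libraries a group changes within the intervals given, and some beyond them, could go uncalled.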
